A study of Arabidopsis thaliana with 6 samples.

Results

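The TOPLESS family of Arabidopsis thaliana comprises TOPLESS (TPL, AT1G15750) and its relatives TPR1 (AT1G80490), TPR2 (AT3G16830), TPR3 (AT5G27030) and TPR4 (AT3G15880). These 5 genes were taken by their identifiers from the 32548 genes in the deposited expression values, without regard to their levels, and all 5 were among the 23685 genes that passed the filter on low values and were tested. RNA-seq, which counts sequenced RNA fragments per gene, was performed on 20-day-old seedlings of 3 genotypes, with 2 libraries each. The genotypes were the Col-0 wild type, hda19, which carries a T-DNA insertion in the histone deacetylase gene HDA19, and hdip1/2/3, a CRISPR-Cas9 triple mutant of the HDIP genes, whose products associate with HDA19. Both mutants are in the Col-0 background, and the labels give no further line or allele, so other mutations in a line cannot be told apart from the named ones. All plants were grown on MS medium and soil in long days with no treatment. No TOPLESS gene is mutated according to the labels, so their transcripts were compared in plants mutant for HDA19 or for proteins that associate with it.

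TOPLESS proteins are transcriptional corepressors related to the Groucho and Tup1 proteins of animals and yeast. They do not bind DNA. Transcription factors or adaptors recruit them through short motifs, often of the EAR type, as do the Aux/IAA repressors of auxin signaling and the adaptor NINJA of jasmonate signaling. TOPLESS acts with HDA19 genetically, and the family is known for roles in the embryonic apical-basal axis, hormone responses, flowering time and immunity.

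The members lie on 3 chromosomes (TAIR10.1). TPL spans chr1:5414817-5421033 and TPR1 chr1:30260818-30267125, both on the minus strand. TPR2 spans chr3:5731519-5737854 on the plus strand, TPR4 chr3:5364081-5372293 on the minus strand, and TPR3 chr5:9508718-9515565 on the minus strand. All 5 are protein-coding genes of similar build, and their longest annotated transcripts have 22 exons and 4165 nt in TPL, 24 exons and 3927 nt in TPR1, 25 exons and 3909 nt in TPR2, 25 exons and 3824 nt in TPR3, and 27 exons and 3975 nt in TPR4. The first 30 coding bases of TPL, TPR2, TPR3 and TPR4 are shown as an example of how close these genes are. They are read 5′ to 3′ on the coding strand from the RefSeq annotation of TAIR10.1. Capitals mark bases that differ from TPL.
TPL: atgtcttctcttagtagagagctcgttttc
TPR2: atgtcGtctTtGagCagagagTtAgttttc
TPR3: atgtcGtcGTtGagtCgagagTtGgtGttT
TPR4: atgtcGtcActCagCagagaActcgtGttT
Over this stretch TPR2 differed from TPL at 6 bases, TPR4 at 7 and TPR3 at 9. The 5 members were also close over the whole coding sequences once translated. TPL and TPR1 were identical at 1049 of 1120 aligned residues (93.7%), whereas the other 9 pairs shared between 62.1% and 70.8%. TPR2 and TPR3 shared 70.0%, and TPR4 was nearer to TPR1 (70.8%) and TPL (70.6%) than to TPR2 (62.1%).

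Even the closest pair could be told apart by most reads. Of the 4116 stretches of 50 nt in the TPL transcript, 7 (0.170%) occurred elsewhere in the genome, and the same 7 were shared with TPR1. TPR2, TPR3 and TPR4 had none. The sample labels describe single-end reads of 50 nt, whereas the methods of the study describe paired reads of 150 nt, for which the overlap would be no larger. Genes on the opposite strand overlapped the exons of 3 members, and the sources used here do not state whether counting used the strand. The overlap of TPL with AT1G15740 was 103 nt, and that gene had between 2696 and 4015 adjusted counts per library. TPR4 overlapped AT3G15870 by 383 nt, but that gene was listed at 0 in all 6 libraries. TPR3 overlapped AT5G27020, which had at most 2.24 adjusted counts in a library, and a noncoding gene listed at 0.

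Recovered sequencing depth was between 43906641 and 48407739 reads on genes per library. The members had between 755 and 10152 reads in a library, for which counting alone gives a standard deviation of 3.64% and 0.992%. The leaf markers RBCS1A, CAB1 and CA1 were abundant in every library. Their sum was 1229146 and 1598004 adjusted counts in wild-type libraries, 1141384 and 1569509 in hda19 libraries, and 1646652 and 2058557 in hdip1/2/3 libraries. The sum was thus highest in both libraries of the triple mutant. CA1 alone did not follow, with 162868 and 216950 in hdip1/2/3 libraries and 204540 and 208639 in wild-type libraries. The summed adjusted counts of 4 root markers were between 0.0234 and 18.8 per library, with EXPA7 at 0 in all 6, so the defining root markers were at or near 0 in material labelled as seedlings. The 5 flower markers summed to between 107 and 216. In bulk RNA, fewer cells of a type and less RNA per cell cannot be told apart. The mutations need not lower the transcripts of HDA19 and the HDIP genes, whose levels thus do not check the genotype labels.

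The members differed in abundance. Levels between genes are given as adjusted read counts, which are read counts brought to a common library size by the authors, per kb of the longest transcript. TPL was the most abundant member, with 1858 ± 399 per kb in the wild type (mean ± SD, n = 2). TPR4 followed with 1048 ± 203, TPR2 with 708 ± 154, TPR1 with 578 ± 87.5 and TPR3 with 336 ± 65.3. Among all tested genes, TPL stood at percentile 89.4 of the wild-type levels per kb and TPR3 at percentile 58.2. Transcripts of all 5 genes were thus found in the same bulk RNA, with TPL between 5.44 and 5.60 times the level of TPR3 in the wild-type libraries. The order was the same in hda19. Among hdip1/2/3 plants, TPR1 (523 ± 35.4) stood above TPR2 (480 ± 106). Neighbors in the order did not overlap between libraries of a genotype, with the exception of TPR2 and TPR1 in the wild type and in hdip1/2/3. These levels rest on the length of a single transcript per gene. With the coding length in its place, the wild-type levels were 2279 for TPL and 675 for TPR1.

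**Figure D1:**
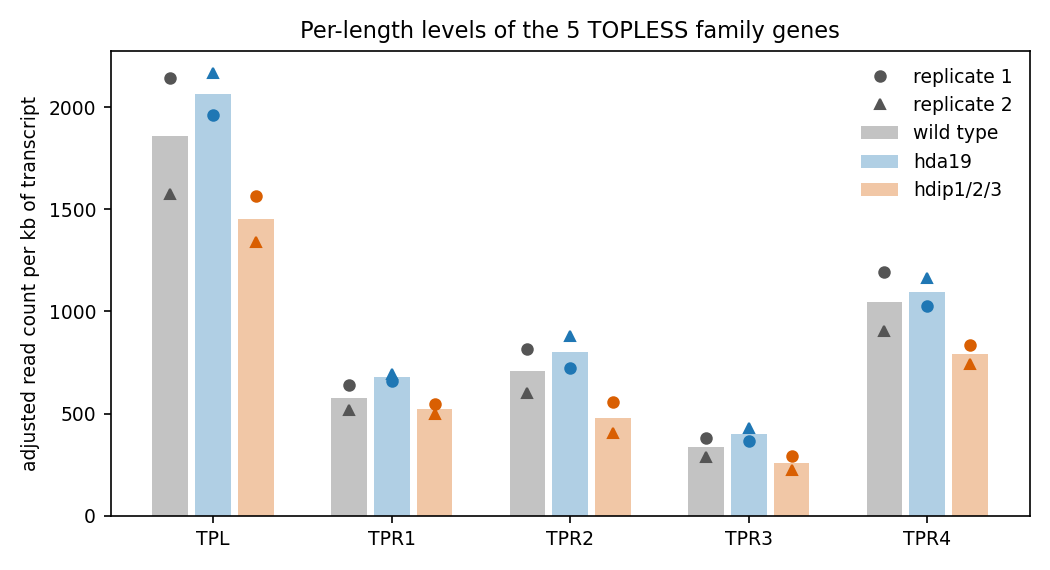
Adjusted read counts per kb of transcript (y axis) of TPL, TPR1, TPR2, TPR3 and TPR4 in each genotype. Bars are means of 2 libraries, circles are replicate 1 and triangles replicate 2. TPL is the highest member throughout, and its wild-type replicates lie far apart, at 2140 and 1576.

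The composition of the family varied little. TPL made up between 40.6% and 41.8% of the summed level per kb in all 6 libraries, and TPR3 between 6.95% and 8.09%. The share of TPR1 was 12.4% and 13.3% in wild-type libraries, 13.9% and 13.0% in hda19 libraries, and 14.4% and 15.5% in hdip1/2/3 libraries. The share of TPR2 was 15.8% and 15.4% in wild-type libraries, 15.2% and 16.5% in hda19 libraries, and 14.6% and 12.6% in hdip1/2/3 libraries. Thus both hdip1/2/3 libraries held the highest shares of TPR1 and the lowest shares of TPR2. The ratio of TPR2 to TPR1 per kb was 1.28 and 1.16 in wild-type libraries, 1.09 and 1.27 in hda19 libraries, and 1.01 and 0.814 in hdip1/2/3 libraries. TPR4 took 23.0% and 23.3% of the family in wild-type libraries, 21.7% and 21.8% in hda19 libraries, without overlap, and 22.0% and 23.2% in hdip1/2/3 libraries. An exact permutation test of 2 against 2 libraries cannot go below a P value of 0.333, so these shares were not tested.

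The values of each member were then examined within the gene, as adjusted read counts per library. TPL, the founding member of the family, had 8915 and 6565 in wild-type libraries, 8177 and 9028 in hda19 libraries, and 6518 and 5580 in hdip1/2/3 libraries. TPR1, which acts with the immune receptor SNC1, had 2513 and 2027 in wild-type libraries, 2596 and 2717 in hda19 libraries, and 2151 and 1954 in hdip1/2/3 libraries. For both genes the hda19 libraries were above those of hdip1/2/3, and the first wild-type library was well above the second. For TPR1, both hda19 libraries exceeded both wild-type libraries. For TPL, both hdip1/2/3 libraries were below both wild-type libraries, with 6518 against 6565 for the nearest pair.
TPR4 had 4735 and 3596 in wild-type libraries, 4088 and 4623 in hda19 libraries, and 3326 and 2954 in hdip1/2/3 libraries. TPR2 had 3194 and 2344 in wild-type libraries, 2821 and 3444 in hda19 libraries, and 2169 and 1583 in hdip1/2/3 libraries. TPR3, the least abundant member, had 1461 and 1108 in wild-type libraries, 1399 and 1650 in hda19 libraries, and 1115 and 853 in hdip1/2/3 libraries. TPR4 and TPR2 were lower in both hdip1/2/3 libraries than in both wild-type libraries, whereas 1 hdip1/2/3 library of TPR3 lay between the wild-type libraries. The hda19 values of these 3 genes overlapped the wild-type values. The members moved together across libraries, with Pearson correlations of log2(value + 1) between 0.900 and 0.990 over the 10 pairs and the same 6 libraries, given here as a description.

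No member passed the test in hda19. In hda19 against the wild type, 0 of 5 members were called by limma-trend, a linear model that shares its spread across genes, with P values adjusted by Benjamini-Hochberg and a threshold of 0.05, where 2.84% of all tested genes were called. At an unadjusted P value under 0.05 limma also called 0 of 5 members, against 17.6% of all tested genes, and limma-voom on the recovered reads called 0 at the adjusted threshold, against 3.20% of all tested genes. All 5 fitted values were above 0, from 0.075 for TPR4 to 0.26 for TPR3 on the log2 scale. The log2 fold change of TPL was 0.17 (95% confidence interval -0.22 to 0.56, adjusted P = 0.705, limma). For TPR1, the member without overlap between libraries, it was 0.23 (interval -0.086 to 0.56, adjusted P = 0.451, limma). Libraries of hda19 stood above those of the wild type in this way for 1 of 5 members and for 23.7% of all tested genes. The intervals of all 5 members include 0. Without wild-type replicate 2, the fitted values of TPL, TPR2 and TPR4 turned to -0.053, -0.035 and -0.12, and without hda19 replicate 2 that of TPR4 turned to -0.013.

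The members had lower fitted values in hdip1/2/3 but did not pass the test. All 5 fitted values were below 0, and 0 of 5 were called, where 7.17% of all tested genes were. An unadjusted P value under 0.05 was reached, on the lower side, by 2 of 5 members and by 15.5% of all tested genes, and limma-voom called 0 of 5 at the adjusted threshold, against 9.01% of all tested genes. The summed leaf markers were higher in hdip1/2/3, though CA1 itself was not in both libraries, as given above. The part of these markers in the lower values of the members was not tested. TPR2 had the lowest value, with a log2 fold change of -0.56 (interval -1.04 to -0.080, unadjusted P = 0.0277, adjusted P = 0.117, limma). TPR4 had -0.40 (interval -0.76 to -0.029, unadjusted P = 0.0376, adjusted P = 0.139, limma). The values were -0.34 for TPL, -0.38 for TPR3 and -0.14 for TPR1, whose adjusted P values from limma were 0.212, 0.221 and 0.525. The libraries of hdip1/2/3 were below those of the wild type for 3 of 5 members, TPL, TPR2 and TPR4, and for 31.3% of all tested genes. Without wild-type replicate 1, TPR1 turned to 0.017.

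The mutants were compared directly, since both comparisons above share the wild-type libraries. All 5 members were higher in hda19 than in hdip1/2/3 in every library, an arrangement seen for 29.8% of all tested genes. The log2 differences were 0.51 for TPL (interval 0.12 to 0.90), 0.37 for TPR1 (0.052 to 0.69), 0.75 for TPR2 (0.27 to 1.23), 0.64 for TPR3 (0.19 to 1.09) and 0.47 for TPR4 (0.10 to 0.84). Each of the 5 had an unadjusted P value under 0.05 from limma, from 0.00733 for TPR2 to 0.0280 for TPR1, where 11.8% of tested genes were so called as higher. None passed the adjusted threshold, with adjusted P values between 0.188 and 0.197, and limma called 0 of 23685 genes in this contrast, with 5187 at an unadjusted P value under 0.05. Limma-voom on the recovered reads also called 0 genes.

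Transcript length moved with these differences. The members are long, between percentiles 95.9 and 97.2 of tested genes by transcript length, where the median is 1615 nt. Among the 293 other tested genes with transcripts of 3824 to 4165 nt, 92.2% had a fitted value below 0 in hdip1/2/3, with a median log2 fold change of -0.58, whereas the median over all tested genes was 0. The shortest transcripts, up to 981 nt, had a median of 0.32. In hda19 the 293 genes had a median of -0.047. Relative to these genes of like length, the members did not stand low in hdip1/2/3. Their log2 fold changes were above the median of the 293 genes by 0.018 for TPR2, 0.18 for TPR4, 0.20 for TPR3, 0.24 for TPL and 0.44 for TPR1, which exceeded 90.1% of them. In hda19 the members were above that median by between 0.12 for TPR4 and 0.30 for TPR3. Between the mutants, the 293 genes had a median difference of 0.56, and 95.6% of them were higher in hda19. The part of transcript length in the members' differences was not tested beyond the removal of its trend given below, and length and genotype cannot be told apart where the libraries of a genotype share a trend.

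**Figure D2:**
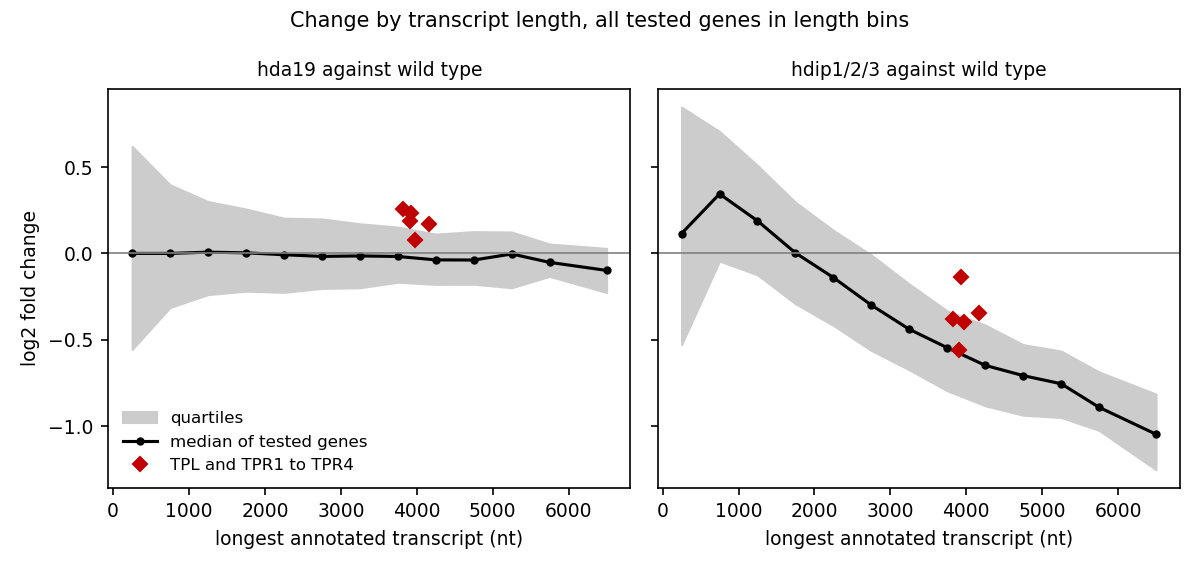
Log2 fold change (y axis) against the length of the longest annotated transcript in nt (x axis), for hda19 and hdip1/2/3 against the wild type. The black line joins the medians of all tested genes in length bins, the grey band spans their quartiles, and red diamonds are the 5 members. In hdip1/2/3 the line falls with length and the members lie on or above it, by 0.44 for TPR1 relative to the 293 genes of like length.

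The pattern was also seen between replicates. The first wild-type library exceeded the second by between 1.24-fold for TPR1 and 1.36-fold for TPR2, or 0.31 to 0.45 on the log2 scale. The median difference between these libraries was 0.38 over the 293 genes of like length and 0 over all tested genes. As deviations from the mean of each gene over the 6 libraries, on the log2 scale, the genes of like length stood at a median of 0.41 and 0.028 in wild-type libraries, 0.054 and 0.29 in hda19 libraries, and -0.19 and -0.57 in hdip1/2/3 libraries. The mean of the 5 members stood at 0.26 and -0.14, 0.15 and 0.34, and -0.17 and -0.44. Thus the mean of the members was below the median of the genes of like length in both wild-type libraries, above it in both hda19 libraries and above it in both hdip1/2/3 libraries. Over these 6 libraries the Pearson correlation of the members' mean with the median of the 293 genes was 0.938, as a description over libraries that also differ in genotype.

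**Figure D3:**
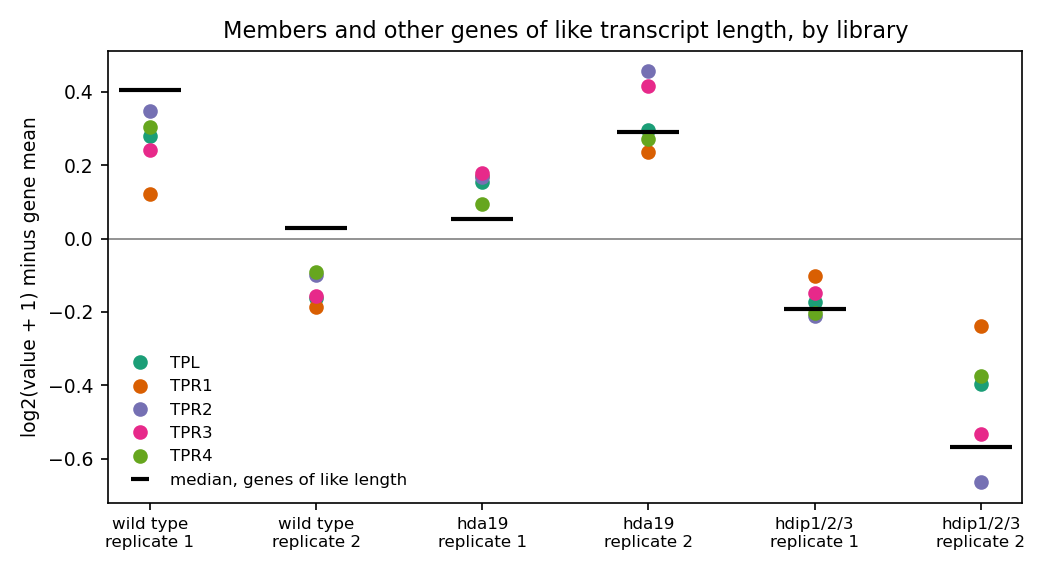
Deviation of log2(value + 1) from the mean of the gene over 6 libraries (y axis) in each library (x axis). Colored points are the 5 members and black dashes the median of 293 genes of like transcript length. Members and dashes fall together in hdip1/2/3 replicate 2, where the median is -0.57, and the members lie below the dash in both wild-type libraries.

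Removal of the trends with length and GC content from each library turned the members' direction in hdip1/2/3. After removal, TPL had adjusted counts of 6523 and 6486 in wild-type libraries, 7805 and 7330 in hda19 libraries, and 7601 and 8628 in hdip1/2/3 libraries. TPR1 had 1904 and 1997 in wild-type libraries, 2506 and 2303 in hda19 libraries, and 2508 and 2873 in hdip1/2/3 libraries. The wild-type replicates thus came close together and stood below both mutants for both genes. Since each library lost its own trend, closer replicates are partly built into the removal for genes that follow the trend. TPR2 had 2407 and 2313 in wild-type libraries, 2701 and 2857 in hda19 libraries, and 2507 and 2355 in hdip1/2/3 libraries, where the last overlapped the wild type. In hdip1/2/3 the log2 fold changes were 0.46 for TPR1 (adjusted P = 0.0249, limma), 0.32 for TPL (adjusted P = 0.0763, limma), 0.22 for TPR4, 0.20 for TPR3 and 0.043 for TPR2. TPR1 was the 1 member of 5 that was called under this alternative, where 10.4% of all tested genes were. In hda19 the values were between 0.13 for TPR4 and 0.32 for TPR3 and 0 of 5 were called, against 8.19% of all genes. Libraries of the mutant were above those of the wild type for 5 of 5 members in hda19 and 4 of 5 in hdip1/2/3, against 24.7% and 27.0% of all tested genes. The standard errors in hdip1/2/3 were between 0.138 and 0.207 before removal and between 0.097 and 0.108 after it, with the same 6 libraries. Their fall is partly built into the removal as well. The direct difference between the mutants was between -0.16 for TPR1 and 0.19 for TPR2, and none was called. The direction of the members in hdip1/2/3 therefore depended on whether the length trend was kept.

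**Figure D4:**
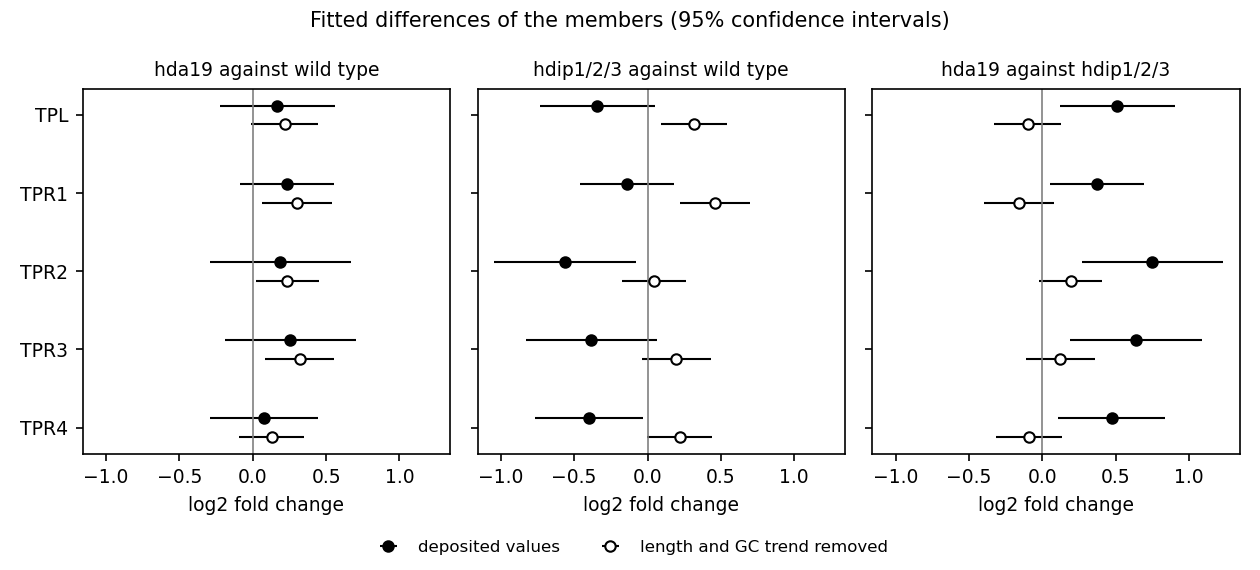
Log2 fold changes of the 5 members (x axis) with 95% confidence intervals in the 3 comparisons, from the deposited values (filled) and with the length and GC trend removed (open). In hdip1/2/3 against the wild type, all 5 members move from below 0 to above 0, TPR1 from -0.14 to 0.46. In hda19 all 5 stay above 0.

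The proteins that recruit TOPLESS corepressors were examined next, from a list of 31 genes, of which 29 were tested and WUS and SPL were too low. In hda19, 1 of 29 was called, lower, beside 0.688% of all tested genes. In the triple mutant, 3 of 29 were called higher and 4 lower, beside 4.35% and 2.82% of all tested genes. The median log2 fold change of the list was 0.011 in hda19 and -0.059 in hdip1/2/3, where the median of all genes was 0. The call in hda19 was lost without a filter on low values or with a pseudocount of 0.1, and the 7 calls in hdip1/2/3 were lost without a filter or in pairwise fits. These calls rest on the spread of 6 libraries, and leaving out any 1 of the 6 libraries left 0 genes called by limma across the genome in every comparison, with between 1525 and 7317 genes at an unadjusted P value under 0.05.
SMXL8, which with SMXL6 and SMXL7 represses strigolactone responses through an EAR motif, was lower in both mutants. It had adjusted counts of 723 and 620 in wild-type libraries, 296 and 343 in hda19 libraries, and 236 and 318 in hdip1/2/3 libraries. No mutant library reached a wild-type library, and the log2 fold changes were -1.07 in hda19 (adjusted P = 0.0419, limma) and -1.29 in hdip1/2/3 (adjusted P = 0.0199, limma). SMXL6 and SMXL7 had -0.37 and -0.34 in hda19 and did not pass the test, and in hdip1/2/3 they fell by 0.95 and 0.61 on the log2 scale (adjusted P of at most 0.0327, limma). These 3 transcripts are long as well, with 3898, 3687 and 3250 nt in SMXL6, SMXL7 and SMXL8. With the length and GC trend removed, SMXL8 was still called in both mutants, at -1.04 and -0.81, whereas in hdip1/2/3 SMXL6 had -0.34 (adjusted P = 0.0857, limma) and SMXL7 -0.058 (adjusted P = 0.804, limma).
CDF1, a DOF factor that represses flowering genes, had adjusted counts of 2075 and 1600 in wild-type libraries, 1183 and 1241 in hda19 libraries, and 1104 and 1056 in hdip1/2/3 libraries. It fell in hdip1/2/3 by 0.75 on the log2 scale (adjusted P = 0.0334, limma), and its value in hda19 was -0.59 (adjusted P = 0.0912, limma). With the trend removed it was called in both, at -0.96 in hdip1/2/3 and -0.65 in hda19.

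Partners that rose in hdip1/2/3 were ERF4, an ethylene response factor with an EAR motif, and the Aux/IAA repressors IAA14 and IAA3. ERF4 had adjusted counts of 858 and 1225 in wild-type libraries, 1721 and 1561 in hda19 libraries, and 2458 and 2606 in hdip1/2/3 libraries, a log2 fold change of 1.30 in hdip1/2/3 (adjusted P = 0.0116, limma). Its hda19 libraries lay between the other groups, with 0.68 against the wild type (adjusted P = 0.0961, limma). IAA14 had 284 and 404 in wild-type libraries, 604 and 528 in hda19 libraries, and 663 and 777 in hdip1/2/3 libraries, with a log2 fold change of 1.08 in hdip1/2/3 (adjusted P = 0.0309, limma). IAA3 had 1080 and 987 in wild-type libraries, 965 and 1015 in hda19 libraries, and 1490 and 1615 in hdip1/2/3 libraries, with 0.59 in hdip1/2/3 (adjusted P = 0.0392, limma). With the trend removed, ERF4 and IAA14 were still called in hdip1/2/3, at 1.10 and 0.87, and IAA3 was not, at 0.27 (adjusted P = 0.183, limma). Calls gained under this alternative were ERF4 in hda19 at 0.75 (adjusted P = 0.00536, limma), the clock gene PRR7 in hda19 at 0.51 (adjusted P = 0.0209, limma) and the floral regulator AP2 in hdip1/2/3 at 0.50 (adjusted P = 0.0226, limma). It called 4 of 29 partners in hda19 and 5 in hdip1/2/3, beside 8.19% and 10.4% of all tested genes. Other well-known partners did not pass the test in either mutant. The log2 fold changes in hda19 and hdip1/2/3 were 0.049 and -0.31 for the jasmonate adaptor NINJA, 0.044 and -0.57 for the immune receptor SNC1, -0.16 and 0.20 for the brassinosteroid factor BES1, and -0.38 and -0.051 for the auxin repressor IAA12. SNC1, with a transcript of 4897 nt, turned to 0.21 in hdip1/2/3 with the trend removed, while the other values kept their sign. Between the mutants, 0 of 29 partners were called by limma-trend or limma-voom, with 9 at an unadjusted P value under 0.05, against 21.9% of all tested genes.

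The other corepressors also had low fitted values in hdip1/2/3, without passing the test. LEUNIG (LUG), its relative LUH, the adaptor SEUSS (SEU) and its SLK relatives, and HOS15 made up a list of 7 genes with a median transcript of 3208 nt. None was called in either mutant by limma-trend or limma-voom, with 0 of 7 in hda19 and 5 of 7 in hdip1/2/3 at an unadjusted P value under 0.05, against 17.6% and 30.6% of all tested genes, and 7 of 7 had a value below 0 in hdip1/2/3, with a median log2 fold change of -0.57. In hda19 their median was 0.018. LUG had 3651 and 2717 in wild-type libraries, 2562 and 2928 in hda19 libraries, and 2266 and 1620 in hdip1/2/3 libraries (log2 fold change -0.72, adjusted P = 0.0681, limma). LUH had 3851 and 3342 in wild-type libraries, 3590 and 4038 in hda19 libraries, and 3521 and 3556 in hdip1/2/3 libraries, a log2 fold change of -0.020, the nearest to 0 of the list. With the trend removed, the values in hdip1/2/3 were -0.17 for LUG, 0.40 for LUH, 0.035 for SEU and -0.070 for SLK2. Those of SLK1, SLK3 and HOS15 were -0.14, -0.35 and -0.31. LUH was the 1 of 7 that was called (adjusted P = 0.0491, limma), beside 10.4% of all tested genes.
Of the 13 genes for HDA19, its relative HDA6 and the subunits of its complexes, 0 were called in either mutant by limma-trend or limma-voom, with 3 and 7 at an unadjusted P value under 0.05 in hda19 and hdip1/2/3, against 17.6% and 30.6% of all tested genes. HDA19 itself had 4298 and 4416 adjusted counts in wild-type libraries, 2832 and 4561 in hda19 libraries, and 4893 and 5206 in hdip1/2/3 libraries. The 13 genes had a median of -0.46 in hdip1/2/3 and 0.088 in hda19 on the log2 scale, and a median transcript of 3701 nt. With the trend removed, HDIP1, HDIP2 and HDIP3 were called higher in both mutants, by between 0.61 and 0.98 on the log2 scale, and the other 10 were not called. Under that setting 8.19% of all tested genes were called in hda19 and 10.4% in hdip1/2/3.
Of 6 genes for Mediator subunits that TOPLESS corepressors are known to contact or that belong to the kinase module, 0 were called by limma-trend, with 0 and 2 at an unadjusted P value under 0.05 in hda19 and hdip1/2/3, where limma-voom called 0 and 1. Over all tested genes these shares were 17.6% and 30.6% at the unadjusted threshold and 3.20% and 9.01% by limma-voom. The kinase CDK8 had log2 fold changes of 0.017 and -0.23 in hda19 and hdip1/2/3, MED21 -0.051 and 0.16, and MED12, whose transcript has 7925 nt, -0.010 and -0.77 (adjusted P = 0.0590 in hdip1/2/3, limma). With the trend removed, MED12 turned to 0.35, MED13 from -0.73 to 0.36 and MED21 to -0.17 in hdip1/2/3, with 0 of 6 called, beside 10.4% of all tested genes.

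**Figure D5:**
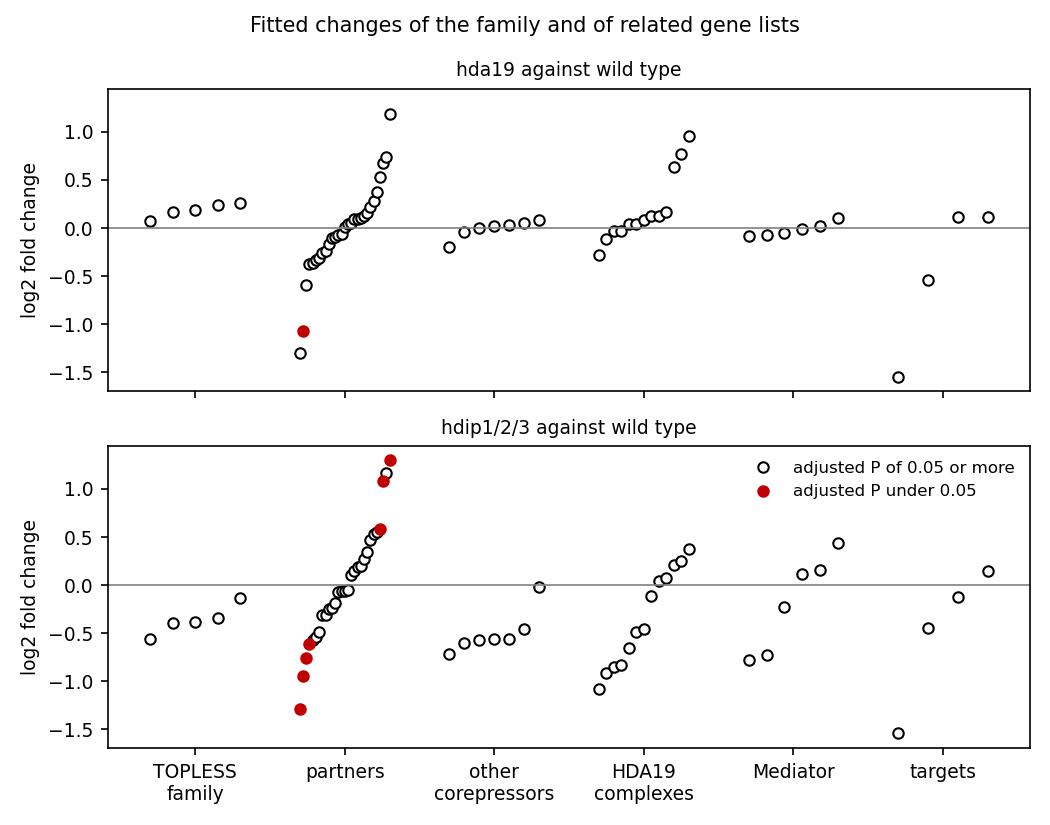
Log2 fold changes (y axis) of single genes in the TOPLESS family and in 5 lists of related genes (x axis), for hda19 and hdip1/2/3 against the wild type, sorted within a list. Red points passed the adjusted threshold of limma-trend and open points did not. In hdip1/2/3 all 5 members and all 7 other corepressors lie below 0 with none called, and the called genes are 7 partners. Below 0 in hdip1/2/3 are also 49.6% of all tested genes and 81.4% of the fifth with the longest transcripts.

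Known targets of TOPLESS repression gave a mixed picture. Of 6 genes, 4 were tested and 0 called in either mutant by limma-trend or limma-voom, with 2 in each at an unadjusted P value under 0.05, against 17.6% and 30.6% of all tested genes, and the root stem cell genes PLT1 and PLT2 were too low. The florigen gene FT, repressed by TOPLESS together with CONSTANS and microproteins, had adjusted counts of 79.5 and 144 in wild-type libraries, 36.0 and 35.6 in hda19 libraries, and 30.6 and 42.7 in hdip1/2/3 libraries. All mutant libraries were below the wild type, with log2 fold changes of -1.55 in hda19 (adjusted P = 0.0912, limma) and -1.54 in hdip1/2/3 (adjusted P = 0.0568, limma). Of the ion channel genes that TPR1 represses in immunity, DND2 had 3139 and 2931 in wild-type libraries, 2006 and 2157 in hda19 libraries, and 2203 and 2265 in hdip1/2/3 libraries. Its log2 fold changes of -0.54 and -0.44 had adjusted P values of 0.0506 and 0.0554 from limma. DND1 had 0.12 and 0.14, and CO, which encodes CONSTANS, 0.11 and -0.13. With the trend removed, FT was called lower in both mutants, DND2 lower in hda19 and DND1 higher in hdip1/2/3 at 0.44 (adjusted P = 0.0463, limma). These were 2 of 4 in each mutant, beside 8.19% of all tested genes in hda19 and 10.4% in hdip1/2/3. The value of CO in hdip1/2/3 turned to 0.18 (adjusted P = 0.869, limma). CO was low, with adjusted counts between 7.04 and 18.3 per library.

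The genes whose pattern over the 6 libraries was most like that of each member were sought among 16097 tested genes with a mean of at least 100 adjusted counts, by the Pearson correlation of log2(value + 1), as a description. They were AT2G36580 and BIN4 for TPL (both 0.998), AT3G58640 and TBL14 for TPR1 (0.995 and 0.994), AT1G67310 and PRT6 for TPR2 (0.9995 and 0.999), the clock gene PRR9 and KEU for TPR3 (both 0.998), and AT4G23540 and ATG18G for TPR4 (0.999 and 0.997). Such likeness was common. TPR2 had 1037 genes with a correlation above 0.95, with a median transcript of 3340 nt, and TPR1 had 176, with a median of 2534.5 nt, where the median over the 16097 genes was 1800 nt. For TPR3, 618 genes had a correlation above 0.95, and PRR9, a gene of the partner list, was 1 of them.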

How the data were processed

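The deposited table holds 1 signal value per gene and library, a read count that the authors brought to a common library size after alignment with HISAT2 (TAIR10) and counting of unique alignments by featureCounts. That the authors used the quantile adjustment of edgeR, a tool their methods name, was inferred from the deposited values. When it was inverted, 195288 of 195288 values fell within 0.01 of whole reads, which served for depth and for limma-voom. Since the deposited values are not raw counts, limma-trend, the fallback named in the design, was run on log2(value + 1) (R 4.3.3, limma 3.58.1). The filter kept 23685 genes whose mean reached 1 in any genotype. The 6 libraries entered one fit with genotype as the only term, and P values were adjusted by Benjamini-Hochberg over these genes. Fold changes are on that scale, which understates low genes. P values measure the spread between 2 libraries per genotype, which the methods call biological replicates. Annotation, names and transcript lengths came from RefSeq TAIR10.1. Trends with length and GC content were removed per library by lowess (span 0.3).

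The members and lists were chosen with earlier results of these data known. The 5 members were named in full, with the genes called in each list, up to 4 more by role, and the 2 genes most like each member with a mean of at least 100. The alternatives were another scaling, a minimum of 10, no filter, pairwise fits, a replicate block, a pseudocount of 0.1, a fold limit of 1 with an unadjusted P value under 0.05, coding length, limma-voom and the omission of each library. Scripts were tested on simulated data. The coding start of 1 member is not reported here. Figures were made in matplotlib 3.10.9 under Python 3.11.15. Seed markers, fixed with those of leaf, root and flower, summed to at most 1.82 per library.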

Additional observations from a re-analysis of the deposited data

How the results depend on the processing

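Of 255 alternative values of the members' fold changes, 226 kept their direction and their side of the threshold, 29 reversed and 0 otherwise crossed the threshold. The kept directions were partly built in. A fold change could not move without a filter, with the higher minimum, in pairwise fits or with the replicate block alone. Nor could it move where the omitted library belonged to neither genotype compared. For such values only the side of the threshold could change. Removal of the length trend accounted for 24 of the reversals and the omission of a library for 5. With length and GC removed, with or without a replicate block, hdip1/2/3 against the wild type gave 0.32 for TPL, 0.46 for TPR1, 0.043 for TPR2, 0.20 for TPR3 and 0.22 for TPR4, and hda19 against hdip1/2/3 gave -0.098 for TPL, -0.16 for TPR1 and -0.090 for TPR4. In this balanced design the block cannot move a fold change, so the reversals with and without it are the same ones. With length alone removed, an alternative chosen after seeing the data like the combinations with the block, the values were 0.28, 0.44, 0.016, 0.18 and 0.19, and -0.093, -0.19 and -0.099. TPR1 was the 1 member called in hdip1/2/3 under each of these 3. Fold changes in hda19 with a library left out ranged from -0.053 to 0.39 for TPL, -0.035 to 0.41 for TPR2 and -0.12 to 0.27 for TPR4, and in hdip1/2/3 from -0.29 to 0.017 for TPR1. The wild-type levels of TPL and TPR1 moved to 2279 and 675 per kb of coding length.

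The counts of called genes in the lists were as follows. Counts over all genes moved under these settings as well and are given in the next paragraph. Partners in hda19 went from 1 to 0 without a filter or with a pseudocount of 0.1, to 4 with length and GC removed, and to 5 with the block added or with length alone. Partners in hdip1/2/3 went from 7 to 0 without a filter or in pairwise fits and to 3 by the fold limit. With any library left out, both counts ranged from 0 to 0. Other corepressors in hdip1/2/3 went from 0 to 2 with a minimum of 10, and to 1 with a replicate block, with length and GC removed (with or without the block) and with limma-voom and the block. The HDA19 complex list went from 0 to 3 in both mutants with length removed (all 3 ways), to 1 in hda19 with a minimum of 10 or with limma-voom and the block, and in hdip1/2/3 to 1 with the block or the fold limit and to 3 with limma-voom and the block. Between the mutants it went to 2 by the fold limit. Mediator genes in hdip1/2/3 went from 0 to 1 with a minimum of 10 or limma-voom and to 2 with limma-voom and the block. Targets in hda19 went from 0 to 1 with another scaling, a minimum of 10 or the fold limit and to 2 with length removed (all 3 ways). In hdip1/2/3 they went to 2 with a minimum of 10 and with length and GC removed (with or without the block), and to 1 with the block, length alone, limma-voom and the block, or the fold limit. The cause of these shifts was not tested.

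Over all 23685 tested genes, the fold limit with an unadjusted P value under 0.05 from limma took 1596 in hda19, 2130 in hdip1/2/3 and 859 between the mutants. The adjusted threshold called 673 genes in hda19 and 1699 in hdip1/2/3. It called 681 and 1727 with another scaling, 484 and 1167 with a pseudocount of 0.1, and 759 and 2135 with limma-voom. With limma-voom and the block it called 829 and 2772. With length alone removed it called 1956 and 2597, and with length and GC removed and the block 2332 and 3323. Without a filter it called 91 and 67, with pairwise fits 525 and 205, with a minimum of 10 it called 968 and 2884, with length and GC removed 1940 and 2468, and with any library left out 0. Deviations from the genotype mean correlated between same-numbered libraries at -0.078, 0.128 and -0.075. With 2 libraries per genotype, these values cannot settle whether the replicate numbers pair the samples. The replicate block moved the counts to 662 and 2068 and called 0 members. Counting error at this depth, at most 3.64% for a member in a library, was below the spread between replicates of the wild type.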
